A study of Mus musculus with 16 samples.

Results

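The loading effect of a gene is the difference between stressed and unstressed wounds harvested on the same day, and the measurements given here ask how that effect differed between day 14 and day 6. All 16 of the 16 arrays of the series enter this comparison, which was computed for each of the 18193 genes of the array as the loading effect of day 14 minus the loading effect of day 6. The tissue was the dorsal incisional wound of wild-type C57BL/6 mice, all labelled female, in a mouse model in which load on the healing wound gives a hypertrophic scar. Unstressed and stressed wounds were taken 6 days after injury, when the stressed ones had been loaded for 48 hours, or 14 days after injury, when they had been loaded for 10 days. There were 4 arrays in each of the 4 groups, and 4 mice were used for each group on each day, per the series text.

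In a skin wound, fibroblasts move in, lay down a collagen-rich matrix and tighten it, while macrophages and neutrophils clear debris and release signals. In a wound that heals well, this activity winds down, the inflammatory cells leave and hair follicles, fat and muscle layers around the wound recover. Mechanical tension across the wound is a known driver of raised, collagen-dense scars, in which matrix production goes on for longer.

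The values were read as log2 signals, though the log base is not stated and a natural log would also give this range. Each probe set is centred, so a value tells how an array compares with the others and not how much RNA there was. Whether defining markers of skin were present or absent could therefore not be judged. Whole wounds were measured, so fewer cells of a type and less RNA per cell cannot be told apart in any result below. The number of arrays limits the precision: over all genes, the median standard error of the difference between days was 0.252 on the log2 scale. The day 14 arrays were of 2 kinds that did not follow loading. Replicates 3 and 4 of both day 14 groups carried 5.98 to 6.30 for Xist, a non-coding RNA of the silenced X chromosome in females, and -3.97 to -3.53 for the mean of 3 Y-linked genes. The other 12 arrays, which included every day 6 array, ranged from -0.53 to 0.81 for Xist and from -0.99 to 0.74 for the Y-linked mean, against their label female. The classes are called low Xist and high Xist here, and results are given with and without them. Day 6 holds no high Xist array, so a difference between days from the high Xist arrays of day 14 sets them against low Xist arrays of day 6.

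Loading effects were of a larger scale at day 14 (10 days of load) than at day 6 (48 hours of load). The day and the length of loading cannot be told apart. The standard deviation of the loading effects over all genes was 0.28 at day 6 and 0.54 at day 14. Spread within groups was larger too, with a median SD of a gene of 0.24 and 0.27 at day 14 against 0.20 and 0.19 at day 6 (unstressed and stressed). Of 18193 genes, 10 (0.055%) passed an adjusted p of 0.05 for loading at day 6 and 1483 (8.15%) at day 14. The signs of the effects often matched. Of the 1483 genes called at day 14, 1189 (80.2%) had a loading effect of the same sign at day 6, against 62.1% of all genes, and across all genes the effects of the 2 days had a Pearson correlation of 0.36 (a description, since genes are not independent and the days share no array).

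A test of the difference itself called few genes. In limma, with Benjamini-Hochberg adjustment over all genes, 7 of 18193 (0.0385%) passed an adjusted p of 0.05, of which 4 (0.022%) were more positive and 3 (0.0165%) more negative at day 14. At an unadjusted p under 0.05 the count was 1834 (10.1%), 841 (4.62%) more positive and 993 (5.46%) more negative. With the Xist class as a term in the fit, 52 genes (0.286%) passed, 34 (0.187%) more positive and 18 (0.0989%) more negative, and with only the 12 low Xist arrays (2 per group at day 14) 1418 (7.79%) passed, 521 (2.86%) more positive and 897 (4.93%) more negative. With the high Xist arrays of day 14 against all day 6 arrays the count was 40 (0.22%). Same-numbered stressed and unstressed arrays of day 14 deviated together, as did most other pairs of arrays of 1 Xist class, and with the number as a block at day 14 137 genes (0.753%) passed. The 7 genes were called in the class-term, low Xist and day 14 block fits as well, and 2 of them, Cthrc1 and Col5a2, in the high Xist fit. A block within each day ended the calls of Ctss and Postn (adjusted p = 0.0551 and 0.0651), and a block over both days those of Col5a2, Postn, Timp4 and Ctss (adjusted p from 0.0696 to 0.0712). With robust empirical Bayes these last 4 genes stood at an adjusted p of 0.0501. When 1 array was left out in turn, 1 to 191 genes passed, with the highest counts without stressed replicate 4 of day 14 (191) and without unstressed replicate 3 of day 14 (61), both of the high Xist class.

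**Figure D1:**
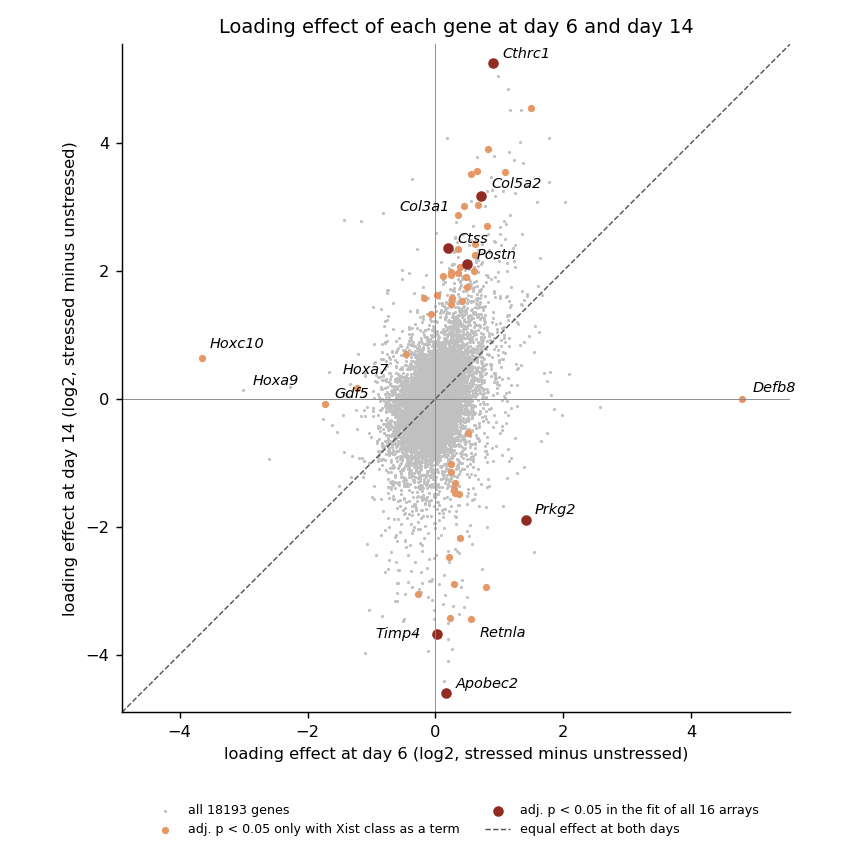
Loading effect of each of 18193 genes at day 6 (horizontal axis) and day 14 (vertical axis), both as log2 stressed minus unstressed, with the line of equal effects dashed. Dark points are the 7 genes called in the fit of all 16 arrays and orange points those called only with Xist class as a term. The 7 called genes lie at 0.03 to 1.42 on the day 6 axis and further from 0 on the day 14 axis (Prkg2, the nearest, at -1.89). Hoxc10, Gdf5 and Defb8 lie further from 0 at day 6 than at day 14.

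Of the 7 called genes, 4 had a loading effect of the same sign and larger size at day 14 (Cthrc1, Col5a2, Postn and Ctss), none had a smaller effect of the same sign, and 3 had effects of opposite sign (Prkg2, Apobec2 and Timp4). Each of the 7 also met a description by single arrays: every stressed minus unstressed difference between arrays of day 14 lay beyond every such difference of day 6. That held for 109 genes in all (0.599%), 60 (0.33%) higher and 49 (0.269%) lower at day 14. The smallest difference called was 1.61 on the log2 scale.

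Bases before the transcription start of the called genes are shown for the members found in the RefSeq promoter table (GRCm38.p6), since these genes moved apart between the days in opposite directions. Of the 7 genes, 4 matched: Apobec2, Ctss, Postn and Timp4. Cthrc1, Col5a2 and Prkg2 did not. Each run gives the 250 bases before the start, 5′ to 3′ on the gene's strand, and capitals mark matches on either strand to TATAAA (the TATA box), GGAATG (the core bound by TEAD factors), GAGGAA (a core bound by the myeloid factor PU.1) and the CArG box bound by SRF.
Postn, chr3:54360857-54361106, plus strand: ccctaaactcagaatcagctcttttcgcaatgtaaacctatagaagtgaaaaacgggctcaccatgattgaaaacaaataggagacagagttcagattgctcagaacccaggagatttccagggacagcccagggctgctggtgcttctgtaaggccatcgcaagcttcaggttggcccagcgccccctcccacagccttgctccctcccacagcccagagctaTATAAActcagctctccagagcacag
Ctss, chr3:95526536-95526785, plus strand: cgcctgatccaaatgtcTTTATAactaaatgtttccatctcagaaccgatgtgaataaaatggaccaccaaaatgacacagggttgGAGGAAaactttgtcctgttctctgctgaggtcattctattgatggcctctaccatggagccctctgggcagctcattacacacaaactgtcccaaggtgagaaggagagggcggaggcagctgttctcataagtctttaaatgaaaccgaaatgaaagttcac
Apobec2, chr17:48432729-48432978, minus strand: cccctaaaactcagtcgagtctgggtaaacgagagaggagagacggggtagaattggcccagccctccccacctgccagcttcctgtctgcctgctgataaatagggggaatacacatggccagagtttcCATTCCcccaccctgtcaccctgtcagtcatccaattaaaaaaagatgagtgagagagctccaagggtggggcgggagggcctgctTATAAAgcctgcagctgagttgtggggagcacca
Timp4, chr6:115252206-115252455, minus strand: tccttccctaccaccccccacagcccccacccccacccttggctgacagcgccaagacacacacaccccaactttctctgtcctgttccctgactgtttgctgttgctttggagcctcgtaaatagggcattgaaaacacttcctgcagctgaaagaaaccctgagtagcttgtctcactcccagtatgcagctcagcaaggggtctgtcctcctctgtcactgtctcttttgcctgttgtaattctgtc

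In these windows TATAAA began 26 bases before the start in Postn and 34 bases before it in Apobec2, and its reverse complement lay at -233 in Ctss. GGAATG was matched on the reverse strand in Apobec2 at -120 and GAGGAA in Ctss at -164. The E box CANNTG, not put in capitals, occurred 3 times in Apobec2, 2 times in Ctss, 1 time in Timp4 and not in the Postn window shown. Of 32851 RefSeq promoter windows of this length, 12.4% held TATAAA, 12.6% GGAATG, 23.3% GAGGAA, 66.2% CANNTG and 1.47% a CArG box. A second Postn window in the table, further upstream, held none of these motifs. The matches are descriptions of the letters and not of bound sites.

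Among the genes whose response grew, Cthrc1, which activated fibroblasts secrete and which carries a collagen-like repeat, had the largest difference. In unstressed wounds its signal was -0.73, -0.50, -0.91 and -0.14 at day 6 and -3.81, -4.18, -4.80 and -5.06 at day 14. In stressed wounds it was 0.46, -0.41, 0.31 and 0.97 at day 6 and 0.73, 1.40, 0.51 and 0.52 at day 14. The 4 unstressed arrays of day 14 thus stood alone at the bottom, and the stressed arrays of the 2 days overlapped. The loading effect was 0.90 (SE 0.31) at day 6 and 5.25 at day 14, a difference of 4.35 (SE 0.44, 95% interval 3.41 to 5.29, limma adjusted p = 0.000993). It was 4.15 with the low Xist and 4.54 with the high Xist arrays of day 14. The call held in all 16 fits that left out 1 array, and after quantile normalization of the arrays the difference was 2.36 (adjusted p = 0.0953). That step acted on the centred values and gave every array the same spread. Without it the SD over genes was 0.30 to 0.44 per array at day 6 and 0.64 to 0.95 at day 14. It therefore narrowed the day 14 arrays and widened those of day 6, here and in the results below.

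Col5a2 encodes a chain of type V collagen, which sets the diameter of collagen fibrils. Its signal in unstressed wounds was -0.59, -0.17, -0.45 and -0.06 at day 6 and -2.29, -1.74, -3.45 and -2.68 at day 14, and in stressed wounds 0.51, 0.06, 0.36 and 0.62 at day 6 and 0.92, 0.80, 0.67 and 0.16 at day 14. As for Cthrc1, only the unstressed wounds of day 14 lay low. The loading effects were 0.71 and 3.18, a difference of 2.47 (SE 0.40, adjusted p = 0.0465), with 2.17 in low Xist and 2.78 in high Xist arrays of day 14.

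Postn encodes periostin, a matricellular protein that helps to crosslink collagen. Unstressed wounds gave -0.38, -0.23, -0.30 and 0.06 at day 6 and -1.90, -1.45, -2.15 and -1.34 at day 14, and stressed wounds 0.29, -0.06, 0.34 and 0.57 at day 6 and 0.38, 0.54, 0.51 and 0.15 at day 14. Its stressed arrays of day 14 lay within the range of those of day 6. The loading effects were 0.50 and 2.11, a difference of 1.61 (SE 0.26, adjusted p = 0.0465), with 1.64 and 1.58 in the low and high Xist arrays.

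Ctss encodes cathepsin S, a lysosomal protease of macrophages and other antigen-presenting cells. Unstressed wounds gave 0.07, 0.08, 0.13 and -0.18 at day 6 and -2.72, -2.90, -3.69 and -2.07 at day 14, and stressed wounds 0.29, 0.08, 0.38 and 0.14 at day 6 and -0.50, -0.07, -0.70 and -0.65 at day 14. Here the stressed wounds of day 14 lay below those of day 6 too, but by less. The loading effects were 0.20 and 2.36, a difference of 2.16 (SE 0.35, adjusted p = 0.0465), with 2.32 and 2.01 in the 2 Xist classes.

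Seen over time in the same fit, unstressed wounds fell from day 6 to day 14 by 3.89 for Cthrc1, 2.22 for Col5a2, 1.5 for Postn and 2.87 for Ctss (adjusted p from 1.33e-06 to 3.15e-05). In stressed wounds the changes of Cthrc1, Col5a2 and Postn were 0.46, 0.25 and 0.11, none past the threshold (adjusted p = 0.221, 0.457 and 0.62), and Ctss fell by 0.70 (adjusted p = 0.0249). Changes over time were common: 55% of all genes passed in unstressed wounds, and handling that differed between the days cannot be told apart from time. Quantile normalization of the arrays lowered the differences to 1.17 for Col5a2, 0.72 for Postn and 1.31 for Ctss (adjusted p = 0.341, 0.541 and 0.178). Leaving out 1 array ended the call of Col5a2 and of Ctss in 13 of 16 fits and that of Postn in 12, with adjusted p-values up to 0.114.

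Prkg2, which encodes the membrane-bound cGMP-dependent protein kinase II, was the 1 called gene with an unadjusted p under 0.05 for loading at both days, in opposite directions. Unstressed wounds gave -0.06, -0.51, -0.98 and -1.06 at day 6 and 1.06, 0.29, -0.26 and 0.06 at day 14. Stressed wounds gave 0.54, 1.57, 0.66 and 0.27 at day 6 and -2.08, -1.66, -1.54 and -1.13 at day 14. The stressed arrays were above every unstressed array at day 6 and below every one at day 14. The loading effect was 1.42 at day 6 (adjusted p = 0.2, not past the threshold) and -1.89 at day 14 (adjusted p = 0.00359), a difference of -3.31 (SE 0.46, 95% interval -4.28 to -2.33, adjusted p = 0.0243). Its other 2 probe sets gave smaller differences of -1.76 and -0.92, and the mean of all 3 was -2.0 (adjusted p = 0.0596). The difference was -3.96 in low Xist and -2.65 in high Xist arrays. The adjusted p lay between 0.0519 and 0.0921 without unstressed replicate 3 or 4 or stressed replicate 1 of day 6, or stressed replicate 1 or 2 of day 14.

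Timp4 and Apobec2 showed almost no loading effect at day 6 and a large fall with loading at day 14. Timp4 encodes a secreted inhibitor of matrix metalloproteinases. Unstressed wounds gave -0.35, 0.60, -0.01 and 0.20 at day 6 and 3.44, 2.27, 1.44 and 2.99 at day 14, and stressed wounds -0.46, 1.44, 0.01 and -0.43 at day 6 and -1.28, -1.34, -1.25 and -0.72 at day 14. Its loading effects were 0.03 and -3.68, a difference of -3.71 (SE 0.61, adjusted p = 0.0465). Its second probe set gave -0.89, and the mean of both was -2.30 (adjusted p = 0.0596).

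Apobec2, a muscle member of the family of polynucleotide deaminases, gave 0.11, -0.09, -0.12 and 0.00 in unstressed wounds at day 6 and 2.68, 2.17, 1.01 and 3.19 at day 14. In stressed wounds it gave 0.24, 0.00, 0.03 and 0.32 at day 6 and -3.53, -2.64, -2.56 and -0.63 at day 14. The groups of day 6 lay within a narrow band, and at day 14 they parted in both directions from it. The loading effects were 0.17 and -4.61, a difference of -4.78 (SE 0.69, adjusted p = 0.0288), while a second, less variable probe set of Apobec2 gave 0.57, the opposite sign, and the mean of both was -2.10 (adjusted p = 0.0596). The difference was -5.69 in low Xist and -3.87 in high Xist arrays for Apobec2 and -4.19 and -3.23 for Timp4. Leaving out 1 array ended the call of Apobec2 in 12 of 16 fits and that of Timp4 in 14. After quantile normalization the differences were -3.94 for Apobec2, -3.19 for Timp4 and -3.77 for Prkg2 (adjusted p = 0.0464, 0.403 and 0.0727).

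**Figure D2:**
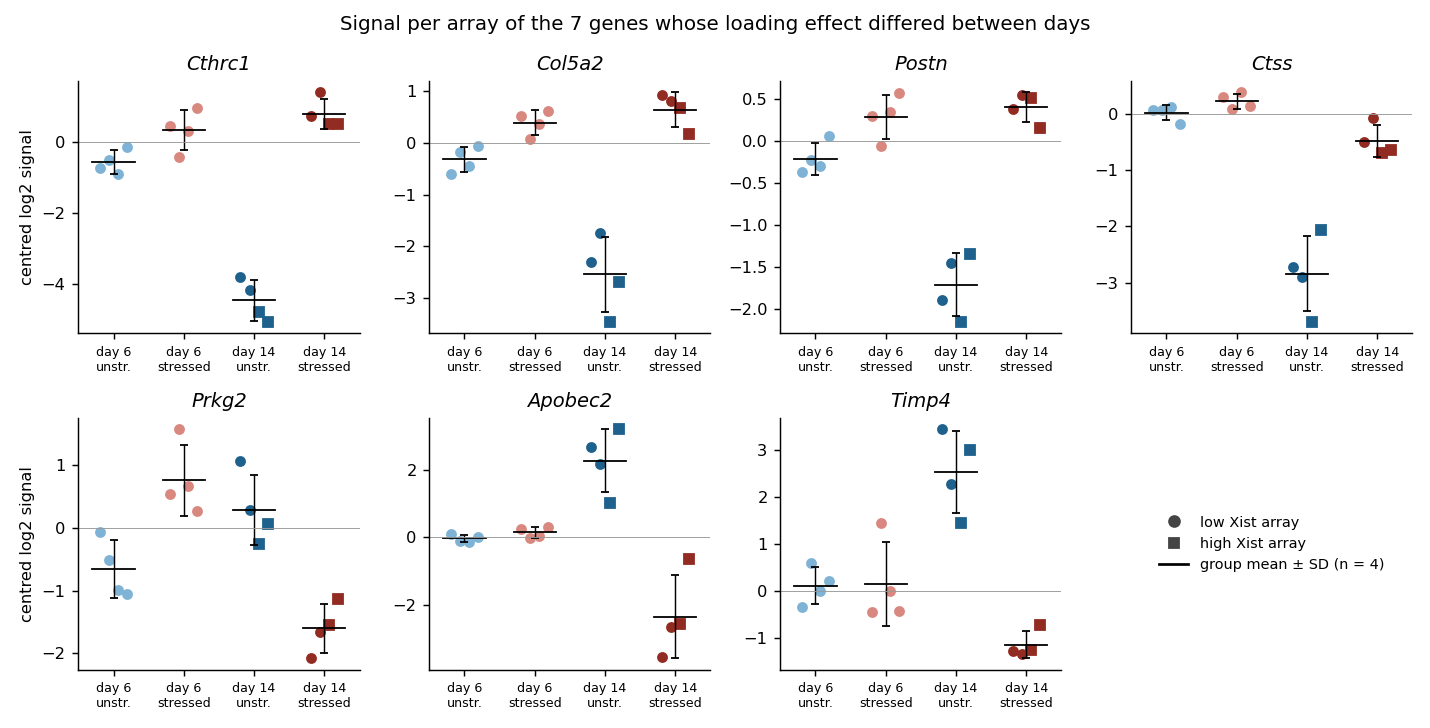
Centred log2 signal (vertical axis) of the 7 called genes in each of the 16 arrays by group, with circles for low Xist and squares for high Xist arrays and black bars for the group mean ± SD (n = 4). For Cthrc1, Col5a2 and Postn the unstressed wounds of day 14 lie alone at the bottom. For Apobec2 the day 14 groups lie on opposite sides of the day 6 groups, for Timp4 1 unstressed array of day 14 (1.44) reaches the highest array of day 6, and for Prkg2 the order of stressed and unstressed wounds is turned.

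Several genes lay just outside the threshold. Of the 3 nearest to it, Ms4a7, a membrane protein of macrophages, had a difference of 1.99 (adjusted p = 0.0501), Hoxc10 of 4.28 and Hoxa7 of 1.39 (adjusted p = 0.0502 for each), against 0.0465 for the last genes called. At an adjusted p under 0.10 the count was 30 genes, 17 more positive and 13 more negative. The fibrillar collagen gene Col3a1 was among them, with a loading effect of 0.45 at day 6 and 3.02 at day 14 (difference 2.56, SE 0.47, adjusted p = 0.0721, and 0.00735 with Xist class as a term). Its other probe set gave a smaller difference of 0.86.

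The collagens as a list, written with earlier results of these data known, showed larger effects at day 14. The list was drawn up for fibrillar and fibril-associated collagens and also held the short-chain collagen Col8a1. Of 17 collagen genes measured, 15 had a loading effect above 0 at day 6 (51.2% of all genes) and 15 at day 14 (51.2%). The medians of the list were 0.60 and 1.75, against 0.01 for all genes at each day. The difference between days was above 0 for 13 of 17 (50.1% of all genes), 1 passed (Col5a2), and 10 were positive with an unadjusted p under 0.05, against 4.62% of all genes. With Xist class as a term Col5a2, Col3a1 and Col5a1 passed. Col5a1, the other main chain of type V collagen, had a difference of 2.37 (class-term adjusted p = 0.0262). Its SE was 0.69 in the fit of all arrays. Col8a1, the short-chain collagen, had the largest difference of the list and went from 1.33 to 4.02 (difference 2.69, adjusted p = 0.0989). For Col1a1, the main chain of type I collagen, the 2 probe sets disagreed, at -0.88 (95% interval -2.26 to 0.50) for the more variable one and 1.47 for the other. The median difference of the list was 1.17, and it was 0.62 with low Xist arrays, 1.68 with high Xist arrays and 0.24 after quantile normalization.

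The mean signal of these collagen genes lay at -0.56 to 0.02 in unstressed and 0.22 to 0.66 in stressed wounds of day 6. At day 14 it lay at -2.31 to -1.08 in unstressed and -0.25 to 0.31 in stressed wounds. From day 6 to day 14, 15 of the 17 fell with a limma adjusted p under 0.05 in unstressed wounds, against 31.8% of all genes. In stressed wounds 4 did so (34.3% of all genes), and the median changes were -1.39 and -0.24.

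In 3 other matrix lists most members had a difference above 0, against 50.1% of all genes. Of 17 genes for collagen processing and crosslinking, 15 had a difference above 0, and 7 were positive at an unadjusted p under 0.05 (4.62% of all genes). Their medians were 0.59 at day 6 and 1.43 at day 14, and none passed. Lox, lysyl oxidase, which crosslinks collagen, went from 0.87 to 3.47 (difference 2.60, SE 0.62, adjusted p = 0.189, with 1 probe set as low as 0.41), and the procollagen proteinase Bmp1 from 0.21 to 2.04. Of 10 small leucine-rich proteoglycans, 8 were above 0, with medians of 0.71 and 1.51, and Aspn, asporin, had the largest difference (3.71, SE 0.79, adjusted p = 0.136). Of 25 matrix proteases and inhibitors, 19 were above 0 and 1, Timp4, passed, on the negative side. The collagenolytic membrane protease Mmp14 went from 0.35 to 2.88 and passed with Xist class as a term (difference 2.53, adjusted p = 0.037), and stromelysin 1, Mmp3, went from 0.33 to 2.76 (difference 2.43, adjusted p = 0.145). After quantile normalization the median differences of these 3 lists were 0.28, 0.09 and 0.23, against 0.67, 0.78 and 0.90 without it.

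Matricellular proteins, which tune how cells hold the matrix, were split. Their median loading effect was 1.07 at day 6 and 0.89 at day 14, and 10 of 17 had a difference above 0 (50.1% of all genes). Cthrc1 and Postn passed, and with Xist class as a term Ccn4 and Ccn3 did too. The differences of Ccn4 and Ccn3 were 2.45 and 3.05 (class-term adjusted p = 0.016 and 0.0395). Their SEs were 0.60 and 0.64 in the fit of all arrays. Both belong to the CCN family of secreted regulators. Ccn3 gave 0.41, 0.20, -0.98 and -0.88 in unstressed and 0.88, 1.16, 1.07 and 1.66 in stressed wounds at day 6, and -3.21, -3.72, -3.57 and -1.50 against 1.14, 1.20, 1.46 and 2.40 at day 14, with no overlap between the groups of either day. Comp, cartilage oligomeric matrix protein, went the other way and is described with the genes of day 6. The list's median difference was 0.15 and -0.74 after quantile normalization, so its sign depended on the scaling.

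Macrophage and monocyte markers also had larger loading effects at day 14. Of 24 measured, 23 had a loading effect above 0 at day 6 and 22 at day 14 (51.2% of all genes at each day), with medians of 0.36 and 1.40. The difference was above 0 for 20 (50.1% of all genes). At an unadjusted p under 0.05, 13 were positive and 1 negative, against 4.62% and 5.46% of all genes. None passed in the fit of all arrays. With Xist class as a term Ms4a7, Mpeg1 (the pore-forming perforin-2) and Tyrobp (the adaptor DAP12) passed on the positive side. The differences of Mpeg1 and Tyrobp were 1.80 and 1.73 (class-term adjusted p = 0.0249 and 0.0447). Their SEs were 0.32 and 0.34 in the fit of all arrays. Ms4a7 gave -0.13, 0.41, 0.56 and 0.03 in unstressed and 0.66, 0.41, 0.56 and 0.66 in stressed wounds of day 6, and -3.35, -3.07, -3.43 and -2.87 against -0.92, -0.03, -1.08 and -1.30 at day 14. As for Ctss, both groups of day 14 lay below day 6, the unstressed one further, and its other probe set gave a difference of 0.29. Clec4n, the myeloid lectin dectin-2, went from 0.55 to 3.51 (difference 2.96, SE 0.52, adjusted p = 0.0567). At a limma adjusted p under 0.05, 20 of the 24 fell from day 6 to day 14 in unstressed and 20 in stressed wounds. Of all genes, 31.8% and 34.3% did so, and the median changes of the list were -2.12 and -1.16. The list's median difference was 0.95, 1.18 with low Xist arrays, 0.75 with high Xist arrays and 0.24 after quantile normalization.

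Retnla, a secreted protein of alternatively activated macrophages that adipose tissue also expresses, was 1 of 4 members of that list with a difference below 0. It gave 1.32, -0.11, -0.70 and -0.62 in unstressed and 0.11, 1.96, -0.20 and 0.22 in stressed wounds of day 6, which overlapped. In the later wounds it gave 2.17, 1.37, 1.64 and 3.30 in unstressed and -2.0, -1.16, -1.39 and -0.74 in stressed wounds, which did not. The difference was -4.0 (SE 0.75, adjusted p = 0.0725, and 0.0367 with Xist class as a term).

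Neutrophil markers had medians of -0.14 at day 6 and 0.63 at day 14, and 10 of 12 had a difference above 0 (50.1% of all genes) without any passing. S100a8, a subunit of calprotectin, gave a difference of 3.94 (SE 1.09, adjusted p = 0.241). Of 19 lysosomal proteins, 14 were above 0 and Ctss passed, with a median difference of 0.32 that was 0.17 after quantile normalization. Among 17 chemokine receptors none passed, and Ccr1, a receptor of monocytes and neutrophils, went from 0.28 to 2.33 (difference 2.05, SE 0.51, adjusted p = 0.213).

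Chemokine ligands did not move one way: 15 of 34 had a difference above 0 (50.1% of all genes). Their medians were 0.27 and 0.37 at the 2 days, and none passed. Ccl2, the monocyte attractant, had loading effects of 1.29 and 1.17 and a difference of -0.12 with a 95% interval of -1.50 to 1.26, which leaves room for a change of either sign. Cxcl14, a chemokine of skin epithelium and fibroblasts, had effects of 1.12 and -1.24 (difference -2.36, SE 0.66, adjusted p = 0.251), and Cxcl13, the B cell attractant, of 0.19 and -3.51 (difference -3.70, SE 1.22, adjusted p = 0.313). The alarmin Il33 went from 1.17 to 2.87 (difference 1.70, SE 0.56, adjusted p = 0.316). Interferon response genes had medians of 0.48 and 0.34, and none of 21 had an unadjusted p under 0.05 in either direction (10.1% of all genes).

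Skeletal muscle markers had the most negative median of the lists. Their median loading effect was -0.05 at day 6 and -2.77 at day 14, all 32 had a difference below 0 (49.9% of all genes), and 27 were negative at an unadjusted p under 0.05, against 5.46% of all genes. Apobec2 passed, and with low Xist arrays 30 of 32 did on the negative side, against 4.93% of all genes. Ckmt2, mitochondrial creatine kinase of muscle, gave -0.30, 0.01, -0.09 and 0.67 in unstressed and 0.27, -0.01, 0.11 and 0.46 in stressed wounds of day 6. At day 14 it gave 1.71, 2.22, -0.90 and 1.79 in unstressed and -3.86, -3.98, -3.77 and -1.25 in stressed wounds. Its difference was -4.55 (SE 0.89, adjusted p = 0.0908), -6.02 in low Xist and -3.08 in high Xist arrays. Unstressed replicate 3 was the lowest and stressed replicate 4 the highest of their groups of day 14.

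The same arrays stood apart for the whole muscle list. Its mean signal lay at 0.10 to 0.61 in unstressed and -0.02 to 0.50 in stressed wounds of day 6. At day 14 it lay at -1.26 to 0.75 in unstressed and -4.16 to -0.55 in stressed wounds, and the median SD of a muscle gene was 1.58 among stressed wounds of day 14 against 0.27 over all genes there. The median difference was -3.91 in low Xist arrays and -1.04 in high Xist arrays. The part of the muscle marker level in the other results was not tested.

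Other muscle transcripts near the threshold were Rpl3l, a ribosomal protein gene of muscle (-3.74, SE 0.67, adjusted p = 0.0681), Asb11 (-2.56, adjusted p = 0.0721), Smtnl1, a smoothelin-like protein (-2.68, adjusted p = 0.0721), and Cox7a1, a muscle subunit of cytochrome c oxidase (-3.20, adjusted p = 0.0724). All 4 passed with Xist class as a term. Slow fibre and cardiac type muscle genes had medians of 0.36 and 0.40, and muscle regeneration genes of -0.16 and 0.25, with none passing in either list. Of the 12 slow fibre and cardiac type genes, 8 had a difference above 0 (50.1% of all genes). At an unadjusted p under 0.05, 3 were negative (5.46% of all genes) and none positive (4.62%). The median difference of that list was 0.16, with -0.34 in low Xist arrays, 0.37 in high Xist arrays and -0.36 after quantile normalization.

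Adipocyte markers lay the same way as muscle. Their median loading effect was -0.02 at day 6 and -1.60 at day 14, and 16 of 18 had a difference below 0 (49.9% of all genes). At an unadjusted p under 0.05, 12 were negative (5.46% of all genes), with none passing. Plin4, a lipid droplet coat protein, gave -0.09, 0.33, -0.10 and -0.14 in unstressed and -0.17, 0.75, 0.09 and -0.14 in stressed wounds of day 6. At day 14 it gave 1.41, 1.18, 0.49 and 2.02 in unstressed and -2.50, -2.58, -1.08 and 0.22 in stressed wounds. The day 14 groups did not overlap, and the difference was -2.89 (SE 0.70, adjusted p = 0.189). The mean signal of the list lay at 0.05 to 1.08 in unstressed and -1.88 to -0.08 in stressed wounds of day 14, and the median difference was -1.97 in low Xist and -0.72 in high Xist arrays.

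**Figure D3:**
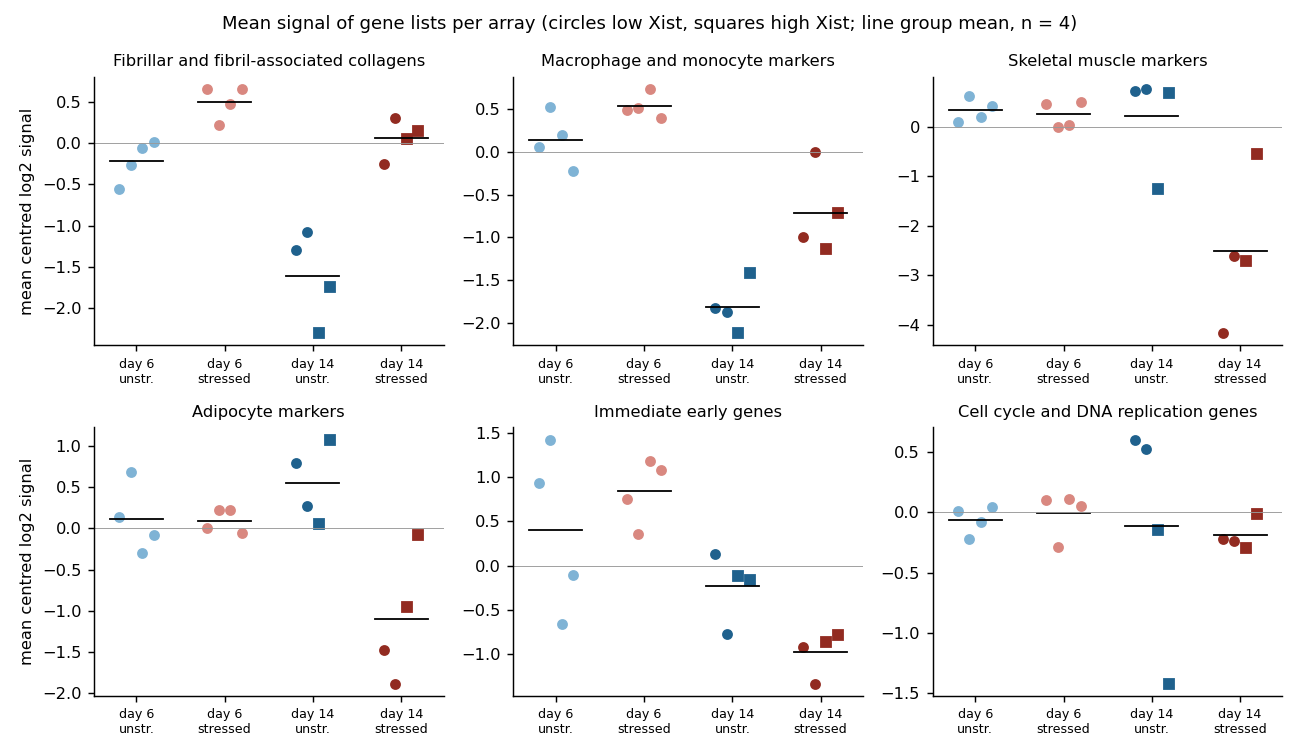
Mean centred log2 signal (vertical axis) of 6 gene lists in each of the 16 arrays, with circles for low Xist arrays, squares for high Xist arrays and a line at each group mean (n = 4). Collagens lie at -2.31 to -1.08 in unstressed wounds of day 14, below all other arrays, and muscle markers reach -4.16 in stressed wounds of day 14. The cell cycle list runs from -1.42 to 0.60, with a median of 0.19, in unstressed wounds of day 14.

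Of the 10 genes called for loading at day 6, 6 had a day 14 effect that did not pass. None of these 6 passed the test of the difference in the group means fit of the deposited values of all 16 arrays. After quantile normalization, which widened the day 6 arrays, Defb8, Hoxc10 and Hoxa7 passed it (limma adjusted p = 4.93e-06, 0.00742 and 0.0324). Gdf5, Comp and Isl1 did not (adjusted p = 0.171, 0.256 and 0.256). Defb8, a beta-defensin, an antimicrobial peptide of epithelia, gave 3.96, 4.82, 2.64 and 6.96 in stressed wounds of day 6. It lay between -0.88 and 0.18 in all 12 arrays of the other groups. The loading effect was 4.80 at day 6 (adjusted p = 0.00802) and -0.01 at day 14, a difference of -4.81 (SE 0.83, adjusted p = 0.0553, and 0.0286 with Xist class as a term).

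Hoxc10 and Hoxa7, called at day 6, and Hoxa9, which was not, belong to the Hox clusters, whose members mark position along the body axis. Hoxc10 gave 2.56, 3.37, 2.71 and 2.91 in unstressed and -0.72, -0.83, -0.76 and -0.74 in stressed wounds of day 6. The day 14 values were 0.08, -0.14, 0.99 and 0.72 in unstressed and 2.20, 2.44, -0.21 and -0.25 in stressed wounds. The loading effect was -3.65 at day 6 (adjusted p = 0.0139), with no overlap between the groups, while at day 14 the sign of the effect depended on the Xist class, at 2.35 in low and -1.09 in high Xist arrays. The difference between days was 4.28 (SE 0.72, adjusted p = 0.0502, and 0.0161 with Xist class as a term), and 6.00 and 2.56 in the classes.

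Hoxa7 had the same layout on a smaller scale, with 1.35, 1.12, 0.82 and 0.90 in unstressed and -0.04, -0.39, -0.15 and -0.11 in stressed wounds of day 6. Its loading effect was -1.22 at day 6 (adjusted p = 0.0136) and 0.17 at day 14 (0.58 in low and -0.25 in high Xist arrays). For Hoxa9 the effect was -3.0 at day 6 (adjusted p = 0.256), and at day 14 2.91 in low and -2.63 in high Xist arrays, so that the mean of 0.14 describes neither class. The difference of Hoxb9 was 1.26 (adjusted p = 0.221), with day 14 effects of 1.13 and -0.20 in the classes. Of 24 Hox genes 12 had a difference above 0 (50.1% of all genes). At an unadjusted p under 0.05, 7 were positive (4.62% of all genes) and none negative (5.46%). The median of the Hox list was -0.04.

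Gdf5, a growth factor of the BMP family, gave 0.99, 2.23, 1.62 and 0.98 in unstressed and -0.44, -0.34, -0.17 and -0.12 in stressed wounds of day 6. At day 14 all 8 arrays lay between -0.11 and 0.29. Its effect of -1.72 at day 6 (adjusted p = 0.00802) became -0.07, a difference of 1.65 (SE 0.31, adjusted p = 0.0723, and 0.0382 with Xist class as a term), and it was the 1 gene of the 52 whose effect was smaller with the same sign. Comp rose by 0.96 with loading at day 6 (adjusted p = 0.0191) and had an effect of 0.23 at day 14, a difference of -0.74 (SE 0.20, adjusted p = 0.241). Isl1, a homeobox transcription factor, fell by 1.54 at day 6 (adjusted p = 0.0225) and had an effect of -0.51 at day 14, a difference of 1.03 (SE 0.34, adjusted p = 0.313).

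The other 4 of the 10 genes called at day 6 had a day 14 effect that passed, of the same sign as at day 6. Gdf5, Comp and Isl1 kept their sign too, with day 14 effects that did not pass. Glis3, a zinc finger transcription factor, gave -0.13, 0.01, 0.09 and -0.23 in unstressed and 1.28, 1.05, 1.10 and 0.69 in stressed wounds of day 6. By day 14 it gave -1.19, -1.23, -1.13 and -1.03 in unstressed and 0.06, -0.01, -0.58 and -0.48 in stressed wounds. From day 6 to day 14 unstressed wounds fell by 1.08 and stressed wounds by 1.28, and the loading effects of 1.09 and 0.89 differed by -0.20 with a 95% interval of -0.68 to 0.28. Zfpm2, a cofactor of GATA factors, had effects of 1.47 and 0.98 (difference -0.49, interval -1.18 to 0.19), and its other probe set gave 0.08. Camk4, a calmodulin-dependent kinase, had effects of 1.61 and 1.04 (difference -0.57, interval -1.39 to 0.25), and only 1 of its 5 probe sets gave a negative difference. Syt13, a synaptotagmin, had effects of 1.05 and 0.63 (difference -0.43, interval -0.93 to 0.08), and its other probe set gave 0.06. Each of these intervals includes 0 and also a fall of at least 0.68.

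**Figure D4:**
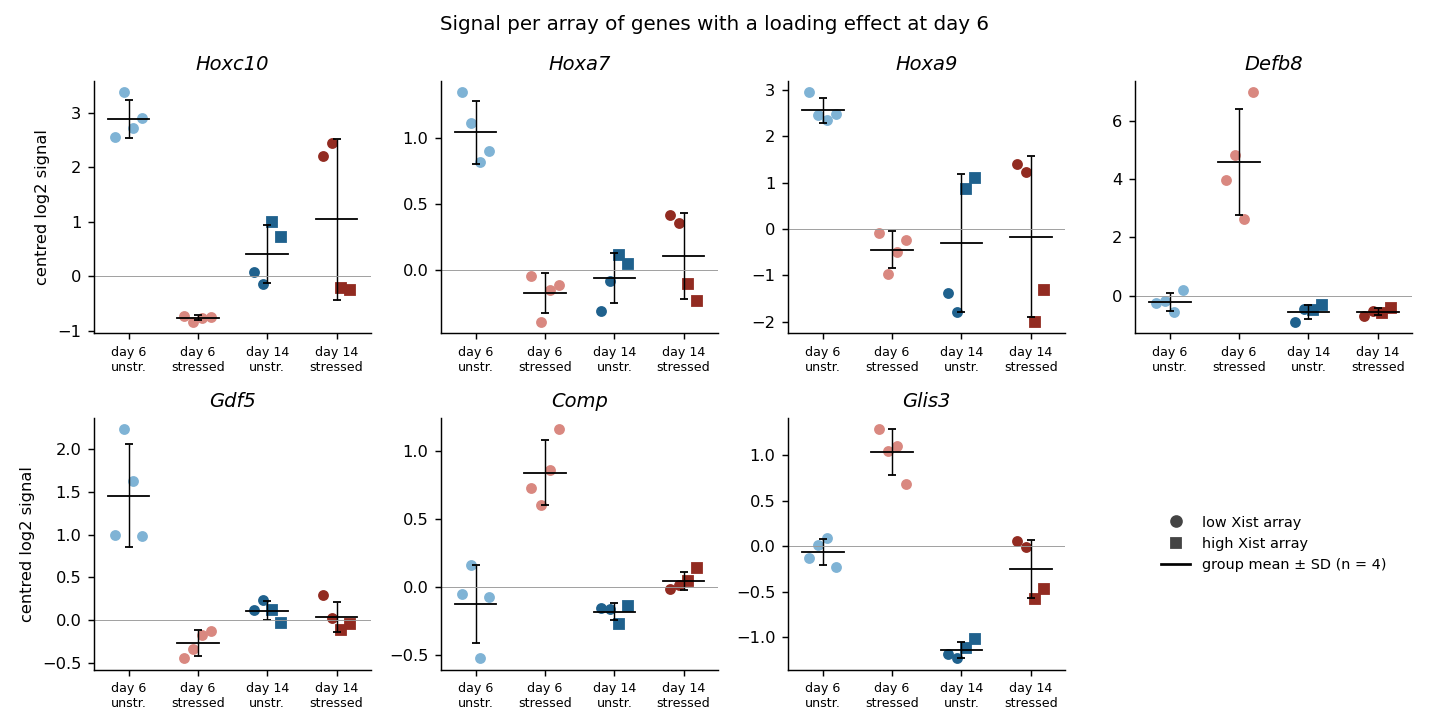
Centred log2 signal (vertical axis, own scale for each gene) by group in each of the 16 arrays, for 6 genes with a loading effect past adjusted p 0.05 at day 6 and for Hoxa9, which did not pass; circles are low Xist and squares high Xist arrays, with the group mean ± SD (n = 4). Hoxc10 and Hoxa9 split the day 14 groups by Xist class, Defb8 is high only in stressed wounds of day 6, and Glis3 keeps its gap while both groups fall.

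Opposite effects at the 2 days, each with an unadjusted p under 0.05, were also measured for Cd5 and Adamtsl3. Cd5, a T cell surface receptor, had effects of -0.63 and 0.61 (difference 1.23, SE 0.25, adjusted p = 0.11). Adamtsl3, a secreted ADAMTS-like matrix protein, had effects of 0.50 and -0.54 (difference -1.04, SE 0.23, adjusted p = 0.142, and 0.0402 with Xist class as a term).

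Immediate early genes, transcription factors switched on within minutes of a stimulus, had a median loading effect of 0.33 at day 6 and -0.70 at day 14. Of 20, 17 had a difference below 0 (49.9% of all genes) and 7 were negative at an unadjusted p under 0.05 (5.46% of all genes). None passed in the fits of all arrays, with the class term or with low Xist arrays. Egr1 gave 1.09, 1.65, -1.55 and -0.36 in unstressed and 0.96, 0.49, 1.30 and 1.23 in stressed wounds of day 6. The values of day 14 were 1.16, -0.15, 0.70 and 0.46 in unstressed and -1.24, -2.33, -0.73 and -0.28 in stressed wounds. Its unstressed wounds of day 6 ranged from -1.55 to 1.65 and overlapped every other group, and the difference was -2.47 (SE 0.81, adjusted p = 0.313). Nr4a1, an orphan nuclear receptor, gave -2.74 (SE 0.98, adjusted p = 0.346), and the zinc finger factor Klf6 -1.31 (SE 0.45, adjusted p = 0.326).

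Genes of contraction and of the SRF and YAP programmes had medians of 0.15 and -0.14. Of 21, 17 had a difference below 0 (49.9% of all genes) and 4 were negative at an unadjusted p under 0.05 (5.46% of all genes). Acta2, smooth muscle actin, the marker of myofibroblasts, had effects of 0.76 and -0.08, a difference of -0.83 with a 95% interval of -2.22 to 0.56. The members with the smallest p were tropomyosins and smooth muscle genes: Tpm1 (-1.97, adjusted p = 0.271), Tpm2 (-2.24, adjusted p = 0.296), Cnn1, calponin (-1.03, adjusted p = 0.313), and Myh11, smooth muscle myosin (-1.51, adjusted p = 0.326). Skeletal muscle also expresses both tropomyosins.

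In the epidermis, suprabasal and cornified keratinocyte markers had a median of -0.45 at day 6 and 0.19 at day 14. Of 27, 23 had a difference above 0 (50.1% of all genes). Casp14, a protease of cornification, had effects of -0.76 and 1.70 (difference 2.46, SE 0.67, adjusted p = 0.241). Krt77, a keratin of the same list, ran the other way, with 0.16 and -3.07 (difference -3.22, SE 0.82, adjusted p = 0.216). Hair shaft and follicle genes had medians of 0.24 and -0.78, and all 29 had a difference below 0 (49.9% of all genes). At an unadjusted p under 0.05, 1 gene was negative (5.46% of all genes). That gene was Sox9, a factor of hair follicle stem cells (-1.12, SE 0.43, adjusted p = 0.376). The hair list rose over time in both groups, with medians of 5.0 in unstressed and 3.43 in stressed wounds (25 and 22 of 29 genes past the threshold, against 23.1% and 24% of all genes), so that its day 14 effect is a gap between large increases. Its median difference was -1.18, and -0.70 after quantile normalization.

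With Xist class as a term, 45 more genes passed than in the fit of all arrays. Those with the smallest p on the positive side included Cercam, an endoplasmic reticulum protein related to collagen glycosyltransferases (1.38, class-term adjusted p = 0.00571). The SE of Cercam was 0.34 in the fit of all arrays. Creb3l1, a membrane-bound transcription factor of secretory cells (1.32, class-term adjusted p = 0.0105), was another. So were Ndufa4l2, a hypoxia-induced mitochondrial protein (1.76, class-term adjusted p = 0.0115), and Prdx4, a peroxiredoxin of the endoplasmic reticulum (1.11, class-term adjusted p = 0.016). On the negative side the genes with the smallest p included Mlf1 (-3.66, class-term adjusted p = 0.007) and Slc5a3, a myo-inositol transporter (-1.87, class-term adjusted p = 0.007). The stress kinase Map3k5 (-1.71, class-term adjusted p = 0.0287) was among them too. Probe sets disagreed for Slc5a3, whose other 2 gave -0.13 and -0.10, and for Prdx4, whose other 3 gave 0.54, 0.35 and -0.12. Creb3l1 gave -0.26, -0.06, 0.13 and -0.06 in unstressed and 0.40, 0.06, 0.20 and 0.13 in stressed wounds of day 6, and -1.18, -0.79, -2.28 and -2.30 against 0.35, 0.83, -0.77 and -0.65 at day 14. Both groups of day 14 were lower in their high Xist arrays, by a similar step. Of the 52 genes, 29 had an effect of the same sign and larger size at day 14, 28 of them from a positive effect, 1 had a smaller one and 22 had opposite signs, 4 with an unadjusted p under 0.05 at both days.

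In some lists the median difference had opposite signs in the Xist classes of day 14, which was not tested. Cell cycle and DNA replication genes had a median difference of -0.11 over all arrays, -0.86 in low Xist and 0.67 in high Xist arrays, and 11 of 29 passed on the negative side with low Xist arrays, against 4.93% of all genes. Mcm6, a subunit of the replicative helicase, gave 1.41, 0.76, -0.66 and -1.22 in unstressed wounds of day 14 against -0.76, -0.65, -1.09 and -0.70 in stressed ones, so the unstressed arrays were high in replicates 1 and 2 and not in 3 and 4. Melanocyte markers had medians of -1.20 and 1.55 in the 2 classes. Sfrp2, a secreted modulator of Wnt signals, had a difference of 1.27 in low and 5.08 in high Xist arrays (3.17 over all, adjusted p = 0.286). Endothelial markers had a median difference of 0.34, with 14 of 22 above 0 (50.1% of all genes). That of T cell and natural killer cell markers was 0.06 and that of ribosomal proteins, listed as a control, 0.05. None passed in these 3 lists. After quantile normalization these medians were 0.05, -0.05 and 0.07, so the sign of the T cell list depended on the scaling.

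**Figure D5:**
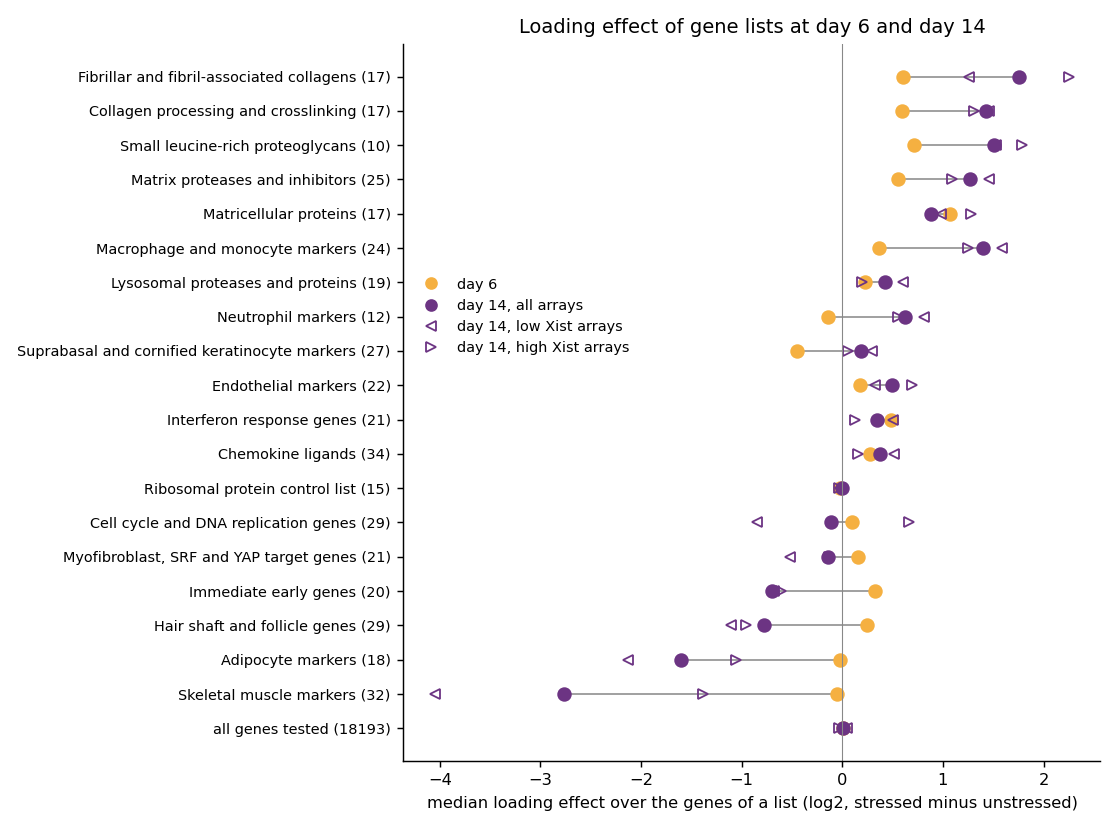
Median loading effect (horizontal axis, log2 stressed minus unstressed) of gene lists at day 6 (yellow) and day 14 (purple), with the number of genes measured in brackets; open triangles give the day 14 median from low Xist (left-pointing) and high Xist (right-pointing) arrays. Skeletal muscle markers move from -0.05 to -2.77, collagens from 0.60 to 1.75, and the cell cycle list has opposite signs in the Xist classes.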

How the data were processed

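RNA of 16 wound samples was measured on Affymetrix arrays, which the authors analysed in GeneSpring GX 11.0, per the series text. The deposited values, read as log2, are centred per probe set by the authors; background correction, summarization and normalization between arrays are steps for which no source used here gives a method. Of 45101 probe sets, 34945 had 1 gene symbol in the platform annotation, 932 had several and 9224 had none or were controls; those with several or none were left out. Each gene was represented by its most variable probe set (by interquartile range of all 16 values; 18193 genes, 9010 with more than 1 probe set), with no filter on low values.

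R 4.3.3 with limma 3.58.1 fitted the group means (lmFit, then eBayes), two-sided, with Benjamini-Hochberg adjustment over all genes and a threshold of 0.05. Plots were drawn with matplotlib 3.10.9 and tables made with scipy 1.17.1, numpy 2.4.6 and pandas 2.3.3 under Python 3.11.15. The groups came from the sample titles. The members, lists, tests and the rule for named genes were chosen with earlier results of these data known. That rule took every called gene, the 10 genes of smallest p in each direction, 8 in each direction with Xist class as a term, 6 fading and 6 reversing genes among those with an unadjusted p under 0.05 at day 6, every gene called at day 6, the 8 largest day 14 effects in each direction, at most 4 members per list described, and Ccl2, Acta2, Col1a1 and Col3a1; clones and predicted genes were skipped, and not every gene it took is printed. Xist class was set at a centred signal of 3.0.

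The fit was tested on simulated data for this comparison (18193 genes, 100 changed by 1 and 100 by 2): 40% and 87% were recovered with 7 false calls. The simulated noise was independent between genes, with 1 SD per gene for all groups and no Xist classes. In the real arrays the median SD of a gene was 0.20 and 0.19 at day 6 and 0.24 and 0.27 at day 14 (unstressed and stressed). The recovery rates therefore need not hold for them. Replicates of a group differed from each other (SD of differences at least 0.255). For the pairing, deviations of same-numbered arrays from their group means correlated at 0.30, 0.18, 0.27 and 0.19 at day 14, where pairs also share their Xist class (different numbers of 1 class: 0.25, 0.21, 0.22 and 0.08), and at -0.13, -0.41, -0.18 and 0.00 at day 6. The numbers come from the titles, and the labels do not say that pairs share a mouse. P-values measure the spread between these arrays. Alternatives were Xist class, other scalings, weights, probe set rules, replicate blocks and leaving out each array. Quantile normalization was applied to the centred values, which gives every array the same spread.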

Additional observations from a re-analysis of the deposited data

Results flagged for a closer look

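The loading effect differed between the days by limma's test of the difference for Cthrc1 (4.35), Col5a2 (2.47), Ctss (2.16), Postn (1.61), Prkg2 (-3.31), Timp4 (-3.71) and Apobec2 (-4.78), each as the log2 effect of day 14 minus that of day 6.

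In 25 of 332 groups of 4 arrays, over the 83 genes named, 1 array lay so far from the other 3 that its gap passed Dixon's 95% critical value; chance gives about 1 in 20 groups. Unstressed replicate 3 of day 14, a high Xist array, accounted for 9 of them: it was the lowest for Loxl1 (-2.93), Lum (-2.57), Tpm1 (-1.81), Cox6a2 (-1.69), Mybpc2 (-1.36), Ckmt2 (-0.90), Tpm2 (-0.29) and Rpl3l (-0.13) and the highest for Map3k5 (1.35). Several of these are muscle genes, and Loxl1 and Lum are matrix genes. Stressed replicate 4 of day 14, of the same Xist class, was the highest for Ckmt2 (-1.25), Tpm1 (-1.31) and Timp4 (-0.72). Among the other day 14 arrays, unstressed replicate 4 was the highest for Ccl2 (-1.22), unstressed replicate 1 the highest for S100a9 (-0.30) and stressed replicate 1 the lowest for Sfrp2 (-0.66).

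At day 6, stressed replicate 2 was the lowest for Bmp1 (-0.93), Mmp14 (-0.78) and Sox9 (-0.73), stressed replicate 1 the lowest for Klf6 (0.33) and stressed replicate 3 the highest for Ccr1 (1.02). Unstressed replicate 2 of day 6 was the highest for Myh11 (1.12), Mybpc2 (0.90) and Plin4 (0.33), and unstressed replicate 1 was the highest for Mcm6 (0.44) and the lowest for P4ha2 (-0.62).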

How the results depend on the processing

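The count of 7 genes (4 more positive, 3 more negative at day 14) was the same with each array centred on its median, and moved as follows, with the more positive and more negative genes in brackets: 52 with Xist class as a term (34, 18), 1418 with only low Xist arrays (521, 897), 40 with only high Xist arrays at day 14 (25, 15), 569 with array weights (200, 369), 15 with group weights (9, 6), 5 after quantile normalization (2, 3), 3 with robust empirical Bayes (1, 2), 1 with the mean of probe sets (1, 0), 3 with every probe set tested (1, 2), 21 among the genes above the median interquartile range (12, 9) and 30 at an adjusted p of 0.10 (17, 13). With a replicate block the counts were 19 within each day (8, 11), 137 at day 14 only (61, 76) and 4 over both days (1, 3); same-numbered arrays correlated over 0.1 in every pair at day 14 and in none at day 6, and pairing cannot be told apart from the shared Xist class. Leaving out 1 array gave 1 to 191 genes (1 to 41 more positive, 0 to 150 more negative). Of the 7 genes, 5 were called with the block within each day, 3 with the block over both days, 3 with robust empirical Bayes, and 1 (Apobec2) was called after quantile normalization and 1 (Cthrc1) with the mean of probe sets. The difference changed sign for Camk4 (0.0002) and Col1a1 (0.30) with the mean of probe sets, for Ccl2 (0.57) and Glis3 (0.14) with only low Xist arrays, and for Ccl2 without single arrays (-0.52 to 0.26); none of these was called. The causes of these shifts were not tested. Low Xist arrays leave 2 per group at day 14, and no depth applies to arrays; values near background could not be told from signal.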
